A study of Danio rerio with 12 samples.

Results

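The genes described here encode granule proteins, metalloproteinases, an oxidase subunit, a cytokine receptor and a transcription factor of neutrophils. They were chosen by symbol as mpx, lyz, npsn, mmp9, mmp13a, ncf1, lect2.1, cebpa and csf3r. Of these 9 symbols, 8 were in the count table of 32520 genes, where they belonged to 9 gene identifiers because mmp13a had 2. The symbol lect2.1 was not among the table's symbols and is not analysed here. The gene lyz (ENSDARG00000057789), which encodes lysozyme, was listed at 0 in all 12 libraries, so no level and no difference can be given for it. The other 7 symbols, with 8 identifiers, had enough counts to be tested.

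Neutrophils are short-lived phagocytes that reach wounds and infections before other leukocytes. They carry granules filled with myeloperoxidase, lysozyme and proteases, and they make reactive oxygen with the NADPH oxidase of phagocytes. Their formation from myeloid progenitors needs C/EBP transcription factors and is promoted by signalling through the granulocyte colony-stimulating factor receptor. In zebrafish, neutrophils are already present in the embryo, and mpx and lyz are the genes most often used to label them. Matrix metalloproteinases are zinc-dependent enzymes secreted as inactive precursors. Transcription of mmp9 and mmp13a is known to rise in inflamed and wounded tissue, where neutrophils, macrophages and epithelial cells can all contribute.

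RNA was sequenced from whole wild-type embryos of the AB strain at 3 days after fertilisation, with 3 libraries in each of 4 groups, to look for targets of testosterone signalling through the membrane receptor GPRC6A. Exposure began a few hours after fertilisation and lasted until collection. Controls received 0.1% DMSO, the solvent. The other groups received 30 µM testosterone, 30 µM testosterone with 5 µM calindol, or 30 µM testosterone with 100 µM EGCG, and are called the testosterone, calindol and EGCG groups below. Both added compounds are GPRC6A antagonists according to the study's design, which calls EGCG the stronger and calindol the weaker. No group received an antagonist without testosterone. Each group had 1 library from each of clutches 1, 2 and 4, and the labels do not say how many embryos went into a library.

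The total count of a library ran from 8181295 to 22510680, with the lowest in the EGCG library of clutch 1. Levels are given in CPM (a gene's count relative to the total of its library) after TMM scaling (trimmed mean of M values), and a group value is the mean ± SD of 3 libraries. Gene lengths were not used, so a level can be compared between groups for 1 gene but not between genes. Differences were tested with edgeR's quasi-likelihood test over 20237 genes, log2 fold changes are given ± their standard error, and a gene passed at a Benjamini-Hochberg adjusted p under 0.05. The smallest count of a tested member was 6, for csf3r in the EGCG library of clutch 1. Where the libraries of groups are said not to overlap, the share of all genes that separate likewise was not computed. In whole embryos, fewer cells of a type and less RNA per cell cannot be told apart.

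The protease genes mmp9 and mmp13a were 2.94-fold to 4.75-fold higher with calindol than with DMSO, and csf3r was 2.83-fold lower with EGCG. The differences of mpx, npsn, ncf1 and cebpa were all under 1 on the log2 scale. With testosterone alone, 1 of the 8 tested identifiers passed against DMSO, lower, where 6.32% of all genes passed, 2.93% higher and 3.39% lower. These 1278 genes were 624, 744 and 705 without the DMSO library of clutch 1, 2 or 4. With calindol, 4 were higher and 1 lower than in DMSO, beside 11.5% and 15.9% of all genes (27.4% in either direction). With EGCG, 2 were lower and 0 higher than in DMSO (0 higher also at an unadjusted p under 0.05 and by DESeq2), beside 9.33% and 7.69% of all genes (17.0% in either direction). These 3445 genes were 1647 to 2283 without any 1 of the DMSO libraries or the clutch 1 or clutch 2 EGCG library. Against testosterone alone, 5 of the 8 were higher with calindol, where 11.0% of all genes were higher and 14.8% lower (25.8% together). With EGCG 1 of the 8 was lower than with testosterone alone, where 5.59% of all genes were lower and 6.05% higher (11.6% together). That background of 2355 genes depended on single libraries, with 584 without the clutch 2 EGCG library, 737 without the clutch 1 EGCG library and 804 without the clutch 2 testosterone library, and the call of the member was lost without either of these EGCG libraries. Between the antagonists, 7 of the 8 were lower with EGCG than with calindol, where 22.0% of all genes were lower and 21.1% higher (43.1% together). The median log2 fold change of the 8 identifiers in that comparison was −1.05, and that of all genes −0.06. Comparisons against DMSO share the same DMSO libraries, and comparisons against testosterone alone share the testosterone libraries.

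**Figure D1:**
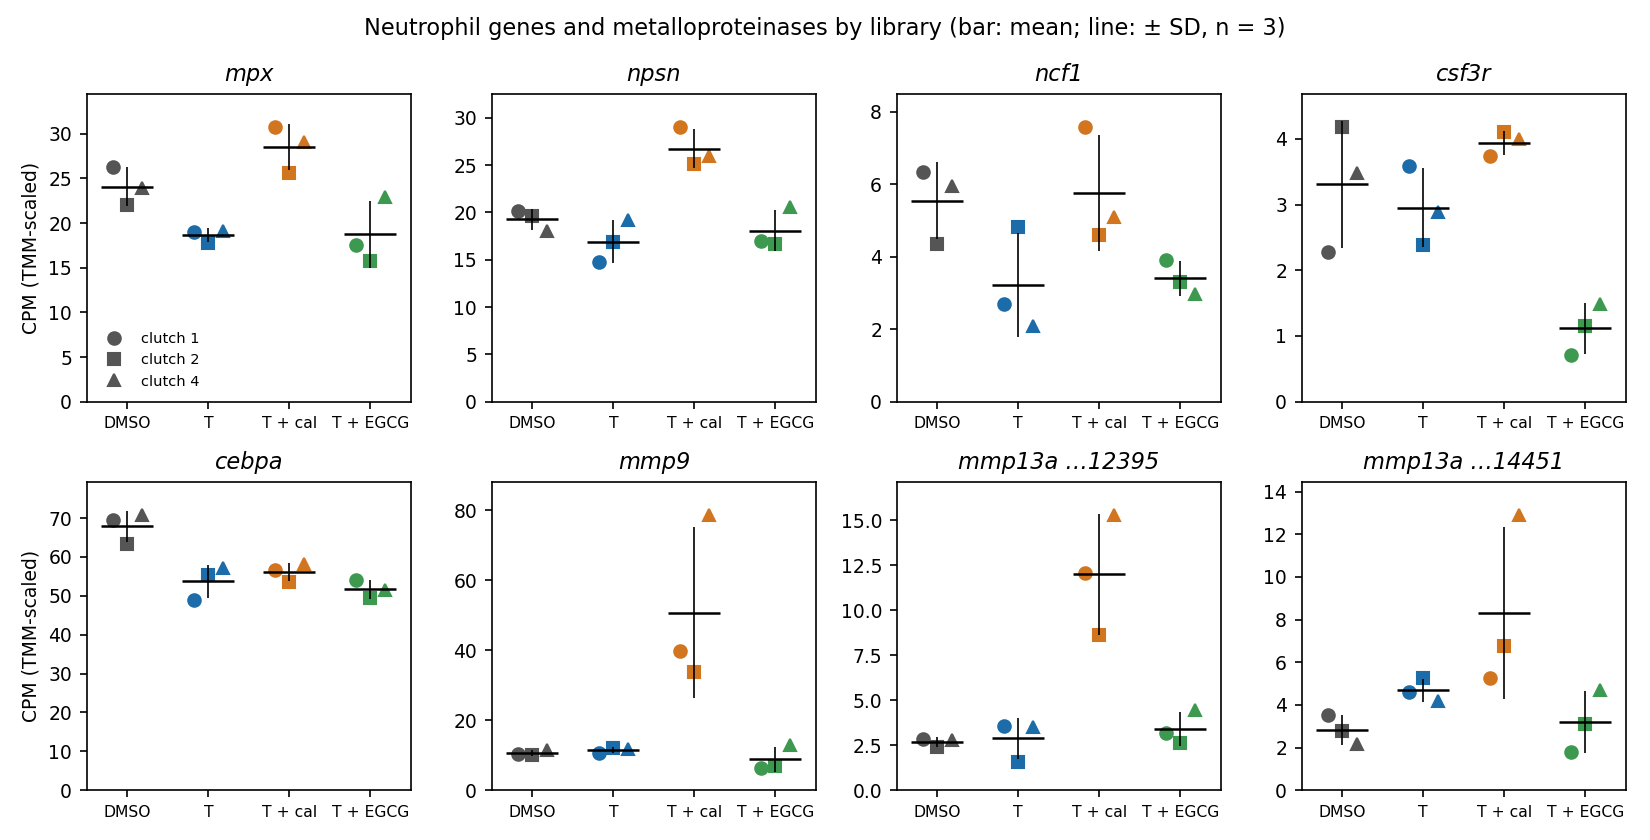
CPM of each tested gene in each of the 12 libraries, with clutches as symbols, the group mean as a bar and ± 1 SD as a line (n = 3). The 3 calindol libraries stood above all others for mmp9, npsn and both mmp13a identifiers, and the 3 EGCG libraries below all others for csf3r. The share of all genes separated in this way was not computed. For ENSDARG00000114451 the lowest calindol library and the clutch 2 testosterone library were almost equal.

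The largest difference belonged to mmp9 (ENSDARG00000042816), which encodes gelatinase B, an enzyme that cleaves denatured collagen and basement membrane components. Its levels were 10.4, 10.03 and 11.5 CPM in the DMSO libraries of clutches 1, 2 and 4, and 10.5, 12.03 and 11.7 CPM with testosterone. With calindol they were 39.7, 33.8 and 78.6 CPM, and with EGCG 6.40, 6.94 and 13.0 CPM. Every calindol library was thus above every other library, while the DMSO, testosterone and EGCG groups overlapped. The calindol mean of 50.7 ± 24.3 CPM was 4.75-fold that of DMSO (10.6 ± 0.747 CPM; log2 fold change 2.25 ± 0.28, adjusted p 5.85e-05). It was 4.42-fold that of testosterone alone (11.4 ± 0.794 CPM; log2 fold change 2.14 ± 0.28, adjusted p 0.000128). EGCG was lower than calindol by a log2 fold change of −2.48 ± 0.29 (adjusted p 1.24e-05). The clutch 4 calindol library was the highest, and without it the log2 fold change against DMSO was 1.80 (adjusted p 9.84e-05). Neither testosterone nor EGCG differed from DMSO past the threshold (log2 fold changes 0.10 and −0.24, adjusted p 0.893 and 0.63).

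The gene mmp13a encodes a collagenase that cleaves fibrillar collagen, and its 2 identifiers were listed next to each other in the table. Reads that match both cannot be assigned from the counts, so each identifier on its own is uncertain. The first, ENSDARG00000012395, had 2.86, 2.39 and 2.81 CPM with DMSO and 3.58, 1.57 and 3.49 CPM with testosterone. It had 12.1, 8.60 and 15.3 CPM with calindol and 3.2, 2.61 and 4.46 CPM with EGCG. All calindol libraries lay above all others, and the remaining groups overlapped. It rose with calindol by a log2 fold change of 2.15 ± 0.29 against DMSO (adjusted p 0.000108) and of 2.06 ± 0.30 against testosterone (adjusted p 0.000228).

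The other mmp13a identifier, ENSDARG00000114451, had 3.55, 2.76 and 2.14 CPM with DMSO and 4.62, 5.26 and 4.19 CPM with testosterone. It had 5.26, 6.78 and 12.9 CPM with calindol and 1.78, 3.12 and 4.68 CPM with EGCG. All testosterone libraries were above all DMSO libraries (log2 fold change 0.74, adjusted p 0.25), and the lowest calindol library and the highest testosterone library were almost equal. Calindol was higher than DMSO (log2 fold change 1.56 ± 0.34, adjusted p 0.00337). Against testosterone the log2 fold change of 0.82 ± 0.33 did not pass (adjusted p 0.0832), and without the clutch 4 calindol library it was 0.38. It did pass without the clutch 1 calindol library (adjusted p 0.0279). When both identifiers were summed, an alternative chosen after the values were seen, calindol was higher than testosterone by 1.42 on the log2 scale (adjusted p 0.00065) and higher than DMSO by 1.88 (adjusted p 6.82e-05). The summed gene was lower with EGCG than with calindol by a log2 fold change of −1.58 (adjusted p 0.000122).

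**Figure D2:**
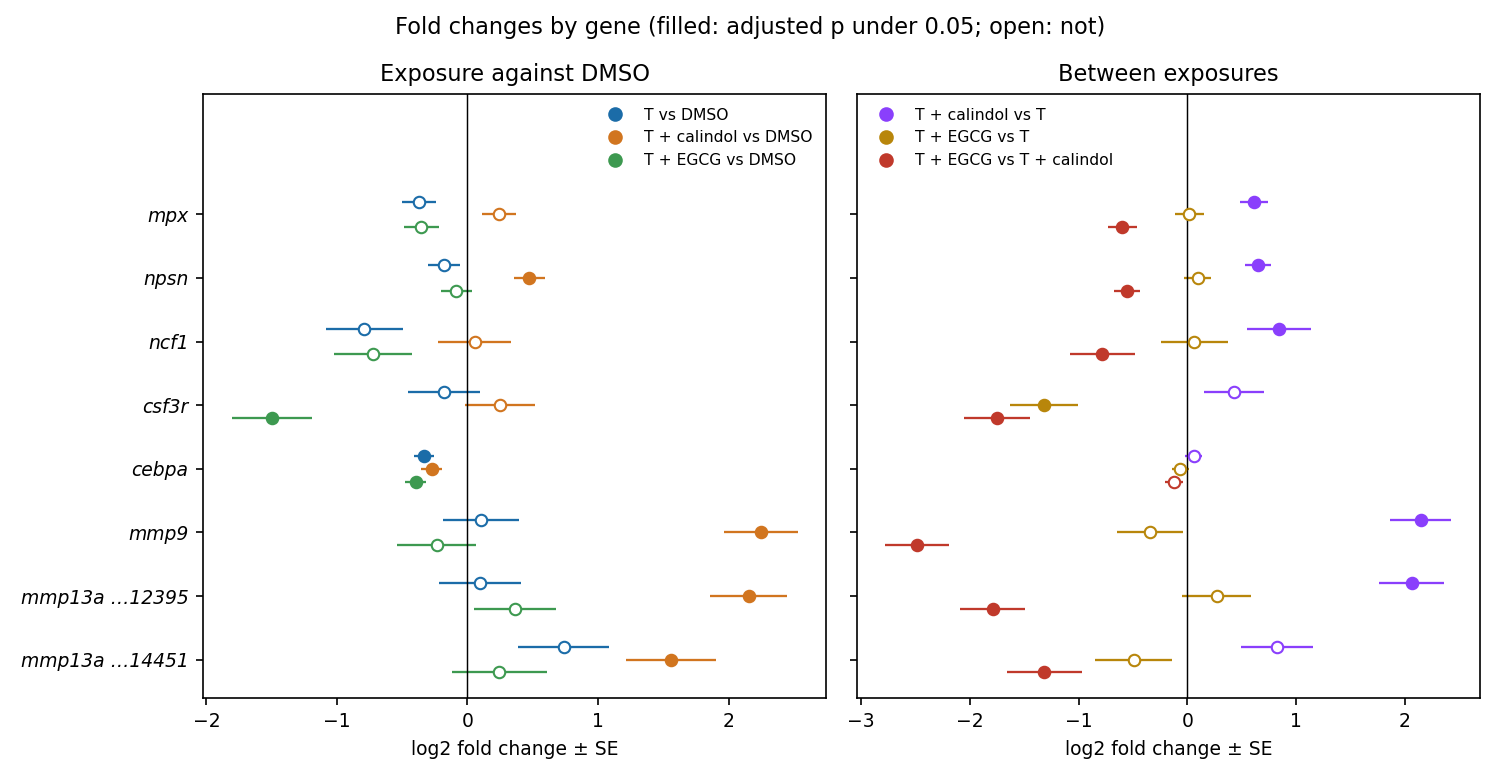
Log2 fold change with its standard error for each tested gene, against DMSO on the left and between exposures on the right, filled where the adjusted p was under 0.05. The proteases stand to the right in both calindol comparisons, and mpx, npsn and ncf1 lie within 1 log2 unit of 0 in all 6.

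The granule genes moved less. The gene mpx (ENSDARG00000019521) encodes myeloperoxidase, which turns hydrogen peroxide and chloride into hypochlorous acid. Its levels were 26.3, 22.0 and 23.9 CPM with DMSO and 19.0, 17.7 and 19.1 CPM with testosterone. They were 30.8, 25.7 and 29.1 CPM with calindol and 17.5, 15.7 and 23.0 CPM with EGCG. All testosterone libraries were below all DMSO libraries, but the log2 fold change of −0.37 ± 0.13 did not pass (adjusted p 0.114). The EGCG value of −0.35 against DMSO did not pass either (adjusted p 0.0795), although it did without the clutch 4 EGCG library (−0.54, adjusted p 0.014) and in a fit of only the DMSO and EGCG libraries (adjusted p 0.0424). With calindol mpx was 1.53-fold higher than with testosterone alone, at 28.5 ± 2.62 against 18.6 ± 0.784 CPM (log2 fold change 0.61 ± 0.13, adjusted p 0.00328). EGCG was lower than calindol (log2 fold change −0.60 ± 0.13, adjusted p 0.00213), without overlap. Ordered by mean, the groups ran from calindol through DMSO and EGCG to testosterone, and no neighbours in that order differed past the threshold.

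The gene npsn (ENSDARG00000010423) encodes nephrosin, an astacin family metalloproteinase that marks neutrophils in zebrafish. It had 20.2, 19.6 and 18.04 CPM with DMSO and 14.7, 16.9 and 19.2 CPM with testosterone. It had 29.1, 25.2 and 25.9 CPM with calindol and 17.0, 16.7 and 20.6 CPM with EGCG. The calindol libraries were above all others, and the remaining 3 groups overlapped. With calindol npsn was 1.39-fold higher than with DMSO (log2 fold change 0.47 ± 0.12, adjusted p 0.00798) and 1.57-fold higher than with testosterone (log2 fold change 0.65 ± 0.12, adjusted p 0.00126). With EGCG it was lower than with calindol (log2 fold change −0.56 ± 0.12, adjusted p 0.00186). These 3 calls of npsn held in all 18 alternatives that change the processing or leave out a library, as did the calls of mpx between calindol and both other testosterone groups.

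The gene ncf1 (ENSDARG00000033735) encodes the p47phox subunit, which carries the cytosolic part of the phagocyte NADPH oxidase to the membrane. Its levels were 6.35, 4.35 and 5.95 CPM with DMSO and 2.71, 4.83 and 2.097 CPM with testosterone. They were 7.59, 4.61 and 5.10 CPM with calindol and 3.91, 3.31 and 2.97 CPM with EGCG. The clutch 2 testosterone library lay within the DMSO range and the other testosterone libraries below it. The EGCG libraries were below all DMSO and all calindol libraries. Against DMSO, neither testosterone (log2 fold change −0.79 ± 0.29, adjusted p 0.135) nor EGCG (−0.73 ± 0.30, adjusted p 0.107) passed. Testosterone passed without its clutch 2 library (−1.23, adjusted p 0.0196), and EGCG in a fit of only the DMSO and EGCG libraries (adjusted p 0.0162). Calindol was higher than testosterone (log2 fold change 0.84 ± 0.29, adjusted p 0.0466) and EGCG lower than calindol (−0.78 ± 0.30, adjusted p 0.0475). Both calls were close to the threshold. With clutch as a block their adjusted p-values were 0.0626 and 0.0615. When each library was left out in turn, the call against testosterone was lost 10 of 12 times, with adjusted p up to 0.186 without the clutch 1 calindol library. The call between the antagonists was lost 8 of 12 times, also with up to 0.186 without that library.

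The gene csf3r (ENSDARG00000045959) encodes the receptor for granulocyte colony-stimulating factor, which drives the production and survival of neutrophils. Its levels were 2.28, 4.19 and 3.48 CPM with DMSO and 3.58, 2.39 and 2.88 CPM with testosterone. They were 3.74, 4.099 and 3.99 CPM with calindol and 0.711, 1.15 and 1.49 CPM with EGCG. Every EGCG library was below every other library, and the testosterone and calindol libraries lay within the DMSO range. With EGCG csf3r was 2.83-fold lower than with DMSO (log2 fold change −1.50 ± 0.31, adjusted p 0.00503) and 2.5-fold lower than with testosterone (−1.32 ± 0.31, adjusted p 0.0162). The call against testosterone was lost without the clutch 1 or the clutch 2 EGCG library (adjusted p 0.0639 and 0.068). Against calindol the log2 fold change was −1.75 ± 0.31 (adjusted p 0.000359). The EGCG libraries held 6, 18 and 27 counts of csf3r and the other 9 libraries 43 to 81, so counting error is largest in the former.

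The gene cebpa (ENSDARG00000036074) encodes C/EBPα, a transcription factor of granulocyte commitment that is also expressed in liver and other tissues. Its levels were 69.5, 63.4 and 70.8 CPM with DMSO and 49.0, 55.4 and 57.0 CPM with testosterone. They were 56.5, 53.5 and 58.3 CPM with calindol and 54.2, 49.4 and 51.4 CPM with EGCG. All 9 exposed libraries were below all 3 DMSO libraries, and the exposed groups overlapped one another. Against DMSO, cebpa fell by 0.33 ± 0.08 with testosterone (adjusted p 0.0193), by 0.28 ± 0.08 with calindol (adjusted p 0.0161) and by 0.40 ± 0.08 with EGCG (adjusted p 0.00426) on the log2 scale. The 3 comparisons use the same DMSO libraries. Without the clutch 1 DMSO library, the adjusted p was 0.0838 for testosterone and 0.0591 for calindol, and without the clutch 4 DMSO library 0.095 and 0.0731. The testosterone call was also lost without its clutch 1 library (0.0709), and the calindol call without its clutch 2 library (0.0559). The EGCG call held in all 18 alternatives. Among the exposures cebpa did not differ past the threshold (adjusted p 0.646, 0.643 and 0.235).

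The members were also compared as ratios to mpx within each library. The ratio of npsn to mpx was 0.753 to 0.889 with DMSO, 0.774 to 1 with testosterone, 0.892 to 0.98 with calindol and 0.897 to 1.06 with EGCG. Every calindol and every EGCG library was thus above every DMSO library, but only narrowly. The highest DMSO ratio of 0.889 was almost equal to the lowest calindol and EGCG ratios of 0.892 and 0.897. The ratio of mmp9 to mpx was 0.396 to 0.479 with DMSO, 0.552 to 0.679 with testosterone, 1.29 to 2.7 with calindol and 0.365 to 0.566 with EGCG. The ratio was thus highest with calindol, where every library was above every library of the other groups. All testosterone libraries were also above all DMSO libraries. For mmp13a, with its 2 identifiers summed, the ratio was 0.207 to 0.243 with DMSO and 0.385 to 0.431 with testosterone. It was 0.563 to 0.97 with calindol and 0.284 to 0.398 with EGCG. For ncf1 it was 0.198 to 0.249 with DMSO, 0.11 to 0.272 with testosterone, 0.175 to 0.246 with calindol and 0.129 to 0.223 with EGCG. For csf3r the ratio to mpx was 0.0405 to 0.0729 with EGCG and 0.0865 to 0.19 in the other libraries. For cebpa it was 1.83 to 2.09 with calindol and 2.24 to 3.14 in the other libraries. These ratios carry the error of mpx and were not tested.

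Profiles over the 12 libraries were compared by the root mean square difference of standardised log2 CPM, where 0 means the same pattern. Of 16100 other genes with at least 1 CPM on average and a symbol in the table (identifiers and names with a colon left out), the 4 most like mpx were plekha3 (0.29), pdcd10a (0.33), paqr6 (0.34) and BX901923.1 (0.35). The genes most like npsn were spg21 (0.27), tob1b (0.30), mvp (0.31) and akt1s1 (0.31). For mmp9 they were sult6b1 (0.24), pdk2a (0.25), il1b (0.25) and mxd3 (0.27). Among these, il1b encodes interleukin-1β, a main cytokine of inflammation. Between members, the difference was 0.51 for mpx and npsn, 0.44 for mmp9 and the first mmp13a identifier, and 1.33 for mmp9 and cebpa. By likeness to mpx, npsn ranked 88 among all genes compared, and the other members ranked lower. Their ranks were 443 for mmp9, 813 and 3708 for the first and other mmp13a identifier, 1742 for ncf1, 2391 for csf3r and 4042 for cebpa. These are descriptions over 12 libraries that share 4 exposures.

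The regulators of granulocyte formation were followed as a list of 13 genes, of which 12 were tested. For this and the later lists, the shares of all genes that passed are those given above for each comparison. The gene cebpd was lower with testosterone than with DMSO, and the other tested genes of the list did not pass. It encodes C/EBPδ, a factor induced in inflammation, and was at 44.1 CPM beside 91.3 CPM with DMSO (log2 fold change −1.04 ± 0.10, adjusted p 1.52e-05). Its level was 96.7 CPM with calindol (1.13 against testosterone, adjusted p 1.06e-05), and 73.6 CPM with EGCG (0.73 against testosterone, adjusted p 0.00139). With calindol 2 of the 12 were higher than in DMSO, cebpg and cebpb (log2 fold changes 0.65 and 0.64, adjusted p 0.000276 and 1e-04), and runx1 was lower (−0.60, adjusted p 0.0397). Leaving out single libraries ended the runx1 call 7 of 12 times, and so did the clutch block (adjusted p 0.0576). With EGCG 3 were lower than in DMSO, spi1a, spi1b and cebpd. The gene spi1a encodes a PU.1-type factor and had a log2 fold change of −1.24 (adjusted p 0.00494). Without the clutch 1 or clutch 2 EGCG library, 1 of the 12 was lower. The cytokine genes csf3a and csf3b, whose products bind the csf3r receptor, did not pass in any comparison, and they are named here after their values were seen. They had only 3 to 23 and 0 to 24 counts per library, so the lack of a call does not show that they were unchanged. The neutrophil factor gene cebp1 was listed at 0 in every library.

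Of 5 other NADPH oxidase genes, all tested, 0 passed in edgeR with testosterone or with calindol against DMSO. DESeq2 also called 0 in both, and at an unadjusted p under 0.05 there were 0 with testosterone and 1 with calindol. With EGCG 3 were lower than in DMSO, among them cybb, which encodes the catalytic subunit (log2 fold change −0.70, adjusted p 0.0329), and its partner cyba (−0.42, adjusted p 0.0315). With the clutch block 1 of these 3 calls was left, and 0 were left without any 1 of the DMSO libraries or without the clutch 2 or clutch 4 EGCG library. Between EGCG and calindol, cybb, rac2 and cyba were lower with EGCG (−0.89, −0.68 and −0.62, adjusted p 0.00301, 0.000449 and 0.000979), and these 3 calls were made in every fit without 1 library.

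Of 9 genes of neutrophil migration, 7 were tested. The receptor genes cxcr1 and cxcr2 had too few counts. Against DMSO, 3 were higher with calindol, all ligand genes. They were cxcl8b.1 (log2 fold change 1.27, adjusted p 0.0163), cxcl8a (0.90, adjusted p 0.0204), which encode interleukin-8 type attractants, and cxcl12a (0.54, adjusted p 0.00403). The cxcl8b.1 call was lost without the clutch 4 DMSO library (adjusted p 0.0783), and the cxcl8a call without the clutch 1 DMSO library (0.0942) or the clutch 1 or clutch 4 calindol library (0.052 and 0.0845). Between the antagonists, 4 were lower with EGCG. The largest of these belonged to cxcl8a (−1.49, adjusted p 0.000745), with 7.24 CPM with calindol and 2.65 CPM with EGCG. Without the clutch 1 calindol library or the clutch 4 EGCG library 2 of the 4 passed.

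The inflammation list held 20 genes, of which 14 were tested. With calindol 11 of the 14 were higher than with testosterone and none lower (none also at an unadjusted p under 0.05 and by DESeq2), and 6 were higher than in DMSO. Against testosterone, il1b was higher, with 3.72 CPM beside 0.680 CPM (log2 fold change 2.43 ± 0.45, adjusted p 0.00126). The suppressor of cytokine signalling gene socs3a rose by 1.75 (adjusted p 3.1e-05), the AP-1 factor gene fosl1a by 1.40 (adjusted p 0.00179) and the chemokine gene cxcl18b by 1.37 (adjusted p 0.00272). With testosterone alone 4 were lower than in DMSO, led by socs3a (−1.57, adjusted p 0.000127) and by nfkbiaa, an inhibitor of NF-κB (−1.04, adjusted p 0.00136). The mean of socs3a was 22.6 CPM with DMSO, 7.49 with testosterone and 25.65 with calindol, and that of nfkbiaa 20.3, 9.84 and 18.6 CPM. For both genes calindol was thus near DMSO, and its difference from testosterone went with the lower testosterone level. With EGCG 3 of the 14 were higher than with testosterone and 0 lower (1 lower at an unadjusted p under 0.05, 0 by DESeq2). Without the clutch 2 EGCG library 0 were higher. Against DMSO, 1 was higher with EGCG and 3 lower, and the higher call was lost in some fits without 1 library. Between the antagonists 8 of the 14 were lower with EGCG. Among these was il1b, at 0.350 CPM with EGCG (−3.30 ± 0.50, adjusted p 0.000111). The EGCG libraries held 2, 5 and 9 counts of il1b and the testosterone libraries 8, 13 and 16, so counting error is large in both. The 11 calls were 9 without the clutch 4 calindol library. That library also held the highest il1b level, 6.27 CPM, beside 2.22 and 2.68 CPM in clutches 1 and 2.

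**Figure D3:**
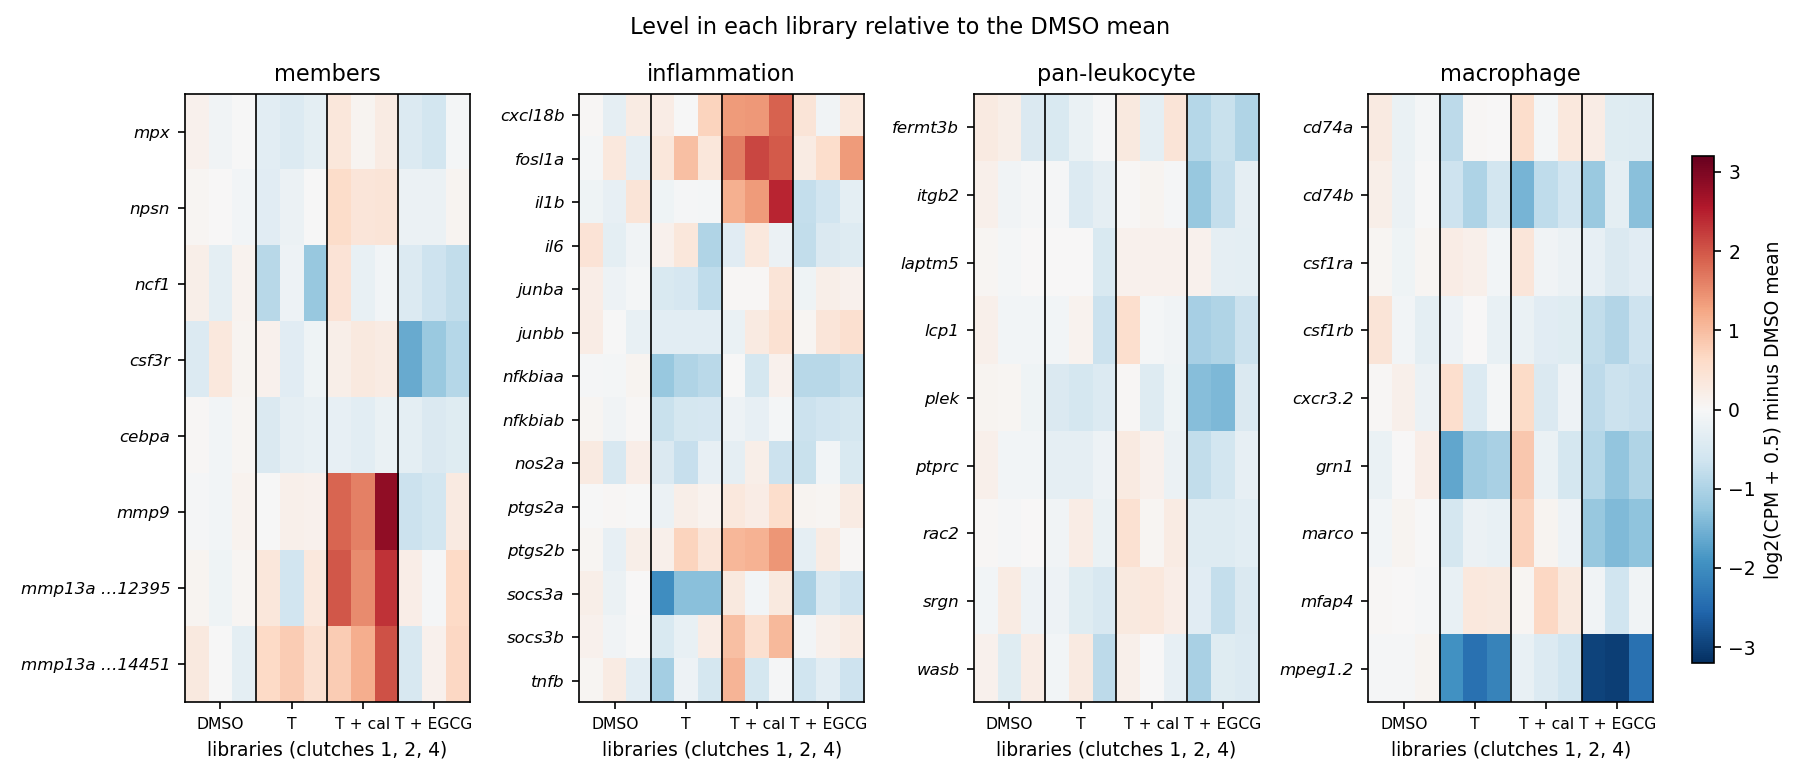
Each tested gene of the panel and of the inflammation, pan-leukocyte and macrophage lists in each library, as log2(CPM + 0.5) minus the DMSO mean, with libraries in the order of clutches 1, 2 and 4 within each group. The calindol columns are red for mmp9, mmp13a, il1b, fosl1a and cxcl18b, and the EGCG columns are blue for csf3r, marco and mpeg1.2.

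Among the other metalloproteinase genes, those that passed with calindol went both ways, and those that passed with EGCG were mostly lower. Of 21 found, 18 were tested, and 0 passed in edgeR or DESeq2 with testosterone against DMSO (4 at an unadjusted p under 0.05), where the list's median log2 fold change was −0.04. Against testosterone, 4 were higher and 3 lower with calindol, beside 11.0% and 14.8% of all genes. The higher genes included mmp13b (2.06, adjusted p 0.0234) and mmp30 (0.61, adjusted p 0.00371), and the lower genes mmp16b (−0.58, adjusted p 0.0141) and mmp23bb (−0.56, adjusted p 0.0443). The mmp13b value rests on 1, 2 and 9 counts in the testosterone libraries and 19, 18 and 13 with calindol. Its mean was 0.913 CPM with calindol and 0.762 CPM with DMSO. Without the clutch 1 testosterone or calindol library 1 of the 4 higher calls was left, and without the clutch 4 testosterone or the clutch 1 calindol library 0 of the 3 lower calls. With EGCG 7 were lower and 2 higher than with testosterone, beside 5.59% and 6.05% of all genes. The lower genes included mmp2, which encodes gelatinase A (−0.56, adjusted p 0.00207), and mmp28 and mmp11b (both −0.65, adjusted p 0.0185 and 0.014). Without the clutch 2 EGCG library 1 of the 7 was left, and with the clutch block 4. The 2 higher calls fell to 0 without the clutch 2 testosterone library or the clutch 1 or clutch 2 EGCG library. The median log2 fold change of the list was 0.14 with calindol and −0.22 with EGCG against testosterone. Against DMSO, 4 were higher and 3 lower with calindol, and without the clutch 1 or clutch 4 DMSO library or the clutch 1 or clutch 2 calindol library 1 was higher. With the clutch block 2 were higher. With EGCG 5 were lower than in DMSO and 0 higher in edgeR (2 higher at an unadjusted p under 0.05 and 2 by DESeq2), with a median of −0.25, and without the clutch 2 DMSO library 2 were lower. Between the antagonists 10 of the 18 were lower with EGCG and 2 higher, with a median log2 fold change of −0.49 beside −0.06 for all genes, and at least 9 were lower in every fit without 1 library.

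Of 6 tissue inhibitor and reck genes found, 5 were tested, and 3 were higher with calindol than with DMSO and than with testosterone. The inhibitor gene timp2a rose by 0.99 against DMSO and 1.03 against testosterone (adjusted p 0.00588 and 0.00549), and timp2b by 0.72 and 0.57 (adjusted p 0.00526 and 0.0226). The gene timp4.3 rose by 2.18 and 2.26 (adjusted p 0.0112 and 0.0113). Without the clutch 4 calindol library its adjusted p was 0.0963 and 0.0877, and 1 of the 3 inhibitors passed against testosterone.

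**Figure D4:**
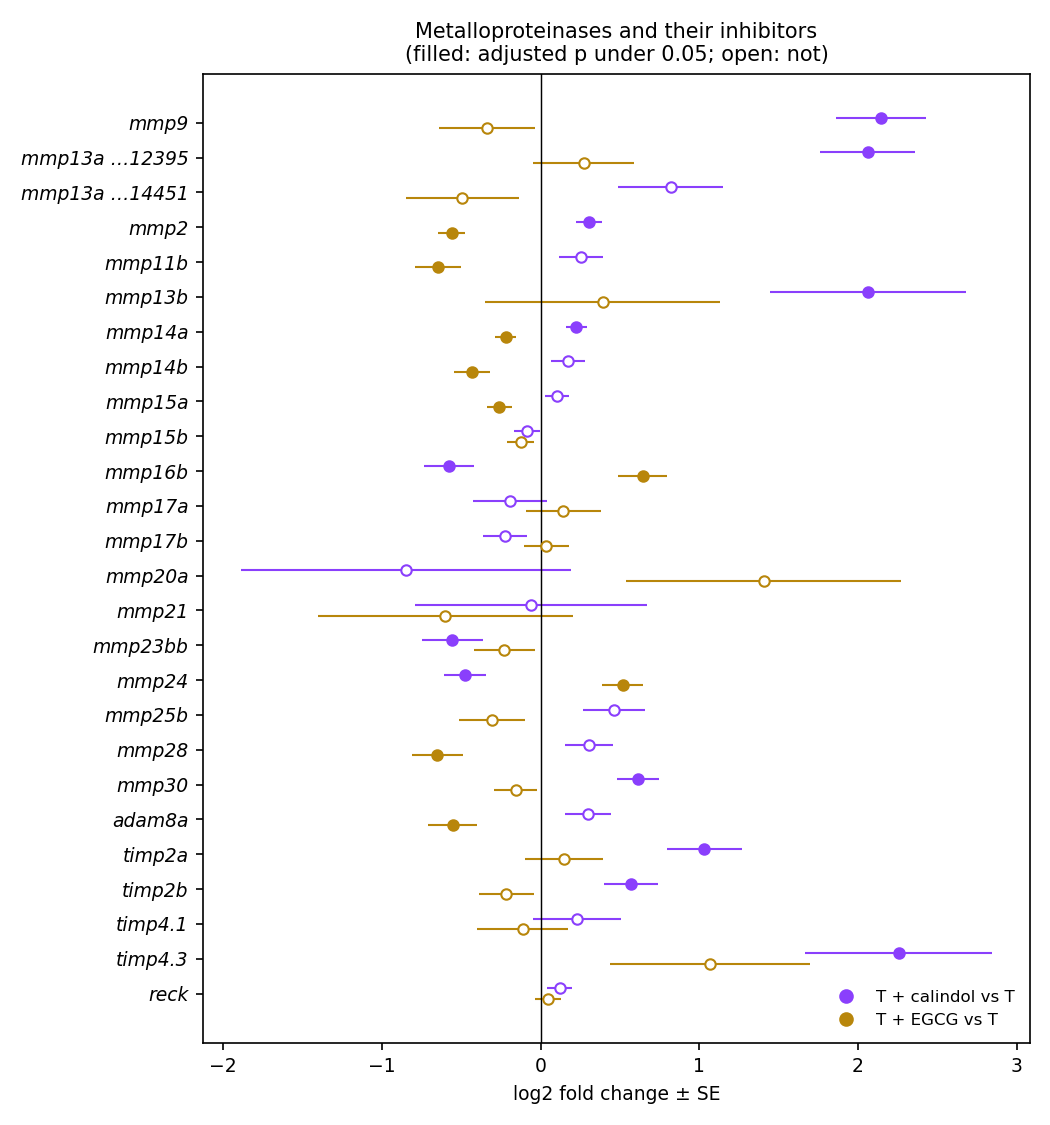
Log2 fold change with its standard error for the metalloproteinase and inhibitor genes with each antagonist against testosterone alone, filled where the adjusted p was under 0.05. With calindol mmp9, an mmp13a identifier, mmp13b and timp4.3 exceed 2, and with EGCG the filled values lie between −0.65 and 0.64. Counts of mmp13b and timp4.3 were low with testosterone.

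Summed markers of leukocytes in general, neutrophils among them, and of other cell types differed between some groups as well. The 10 genes of the pan-leukocyte list summed to 83.8 to 91.6 CPM with DMSO, 67.3 to 88.5 with testosterone, 90.2 to 114.6 with calindol and 54.4 to 64.0 with EGCG. The gene coro1a was listed at 0. In this list, rac2 was also one of the NADPH oxidase genes above and itgb2 one of the migration genes, so these counts share genes. Of the 9 tested, 0 passed in edgeR or DESeq2 with testosterone or calindol against DMSO (1 in each at an unadjusted p under 0.05), and 6 were lower with EGCG. The latter count fell to 0 without the clutch 1 DMSO library or the clutch 2 EGCG library, and to 4 with the clutch block. With calindol 1 of the 9 was higher than with testosterone and 0 lower (0 lower also at an unadjusted p under 0.05 and by DESeq2). The median log2 fold change of the list was 0.37 there. Between the antagonists 7 of the 9 were lower with EGCG, among them ptprc, which encodes CD45 (−0.67, adjusted p 0.0174). The ptprc call was lost without the clutch 1 calindol library (0.0657) and without the clutch 1 or clutch 2 EGCG library (0.0591 and 0.058).

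The macrophage list of 14 genes summed to 76.7 to 83.4 CPM with DMSO, 48.7 to 55.0 with testosterone, 62.4 to 91.3 with calindol and 31.9 to 36.8 with EGCG. Of these 14, 5 were listed at 0 (mpeg1.1, slc7a7, c1qa, c1qb and c1qc) and 9 were tested. With testosterone 2 of the 9 were lower than in DMSO and 7 did not pass. With the clutch block 1 was lower, as without any 1 of the DMSO or testosterone libraries. Most of the fall of the sum with testosterone came from mpeg1.2. The perforin gene mpeg1.2 had 34.8 CPM with DMSO, 7.46 with testosterone, 25.8 with calindol and 4.73 with EGCG. It was lower than in DMSO with testosterone (log2 fold change −2.23, adjusted p 2.48e-06) and with EGCG (−2.84, adjusted p 7.93e-07). With calindol it was also lower than in DMSO (−0.43, adjusted p 0.0489), close to the threshold, and that call was lost in 8 of 18 alternatives, with adjusted p up to 0.185 without the clutch 4 calindol library and 0.058 with the clutch block. Another macrophage gene, mfap4, did not pass in any of the 6 comparisons. With calindol 3 of the 9 were higher than with testosterone (2 with the clutch block) and 0 lower (0 lower also at an unadjusted p under 0.05 and by DESeq2). In EGCG against DMSO 4 of the 9 were lower, and 2 were lower without the clutch 1 DMSO library or the clutch 1 or clutch 2 EGCG library. Of the 8 tested neutrophil identifiers, csf3r and cebpa were lower in that comparison and 6 did not pass. Among the latter were mpx and npsn (adjusted p 0.0795 and 0.674), and cebpa was also lower with testosterone and with calindol. The part of leukocyte number in the differences of csf3r, ncf1, mmp9 and mmp13a was not tested.

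The liver list, of interest because liver cells express cebpa, summed to 5959 to 6228 CPM with DMSO, 4590 to 5517 with testosterone, 4990 to 6464 with calindol and 3999 to 4107 with EGCG. A sum follows the most abundant genes. With testosterone 1 of the 10 liver genes was higher than with DMSO, 1 lower and 8 did not pass, with a median log2 fold change of −0.02. The lower call was lost with the clutch block. It was also lost without any 1 of the DMSO or EGCG libraries or the clutch 1 or clutch 4 testosterone library. With calindol 3 were higher and 1 lower. Without any 1 of the DMSO libraries, the clutch 4 calindol library or the clutch 2 EGCG library 1 was higher, and with the clutch block 2. With EGCG 5 of the 10 were lower than with DMSO and 2 higher, fabp10a (log2 fold change 1.52, adjusted p 0.00249) and ambp (0.90, adjusted p 0.00406). The erythroid list summed to 1479 to 1734 CPM with DMSO and to 1992 to 2895 CPM over the exposed libraries. Of its 7 tested genes, 2 were higher than in DMSO with each exposure and 5 did not pass. With testosterone 1 was left with the clutch block, and 1 without the clutch 1 or clutch 4 DMSO library. The hatching gland list, whose level depends on the stage of the embryo, summed to 5.47 to 12.8 CPM with DMSO, 31.2 to 50.01 with testosterone, 4.99 to 7.79 with calindol and 54.7 to 83.8 with EGCG. Of its 4 tested identifiers, 2 were higher than in DMSO with testosterone and 3 with EGCG. With calindol 0 passed against DMSO (0 also at an unadjusted p under 0.05 and by DESeq2). Without the clutch 1 DMSO library 1 was higher with testosterone and 2 with EGCG. The sums of these lists differed between some of the groups in which mpx, mmp9, csf3r and cebpa differed. The part of these tissues in those differences was not tested.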

How the data were processed

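The authors deposited 1 table of whole-number counts per gene, made per the file headers with STAR from trimmed reads. The submitters' processing notes name Trim Galore 0.6.10, STAR 2.7.1a, featureCounts and the build GRCz11. Library preparation was strand-specific after poly(A) enrichment, per the labels' protocols. The annotation release, the strandedness option and how multiply matching reads were handled are not given in the sources used here. Of 32520 genes, 5732 had no count in any library.

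Columns were matched to samples by exposure and clutch number. Genes were kept by filterByExpr (minimum count of 10), which left 20237, and all 12 libraries entered 1 edgeR 4.0.16 quasi-likelihood fit (R 4.3.3) with TMM scaling, 1 mean for each group and 8 residual degrees of freedom. Tests were two-sided, with Benjamini-Hochberg adjustment over all genes tested. The standard error is the log2 fold change divided by the square root of F. The code was run on counts simulated from its own fit with planted changes, which is not a check of the results given here. Within groups log2 CPM correlated at 0.961 to 0.986, and no pair of libraries of a group agreed within counting error (chi-square per degree of freedom 3.17 to 23.2).

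The labels give clutches 1, 2 and 4 in every group, so libraries with the same number come from the same clutch. Deviations from the group mean correlated between same-clutch libraries at −0.08 to 0.106 (mean 0.017, 18 pairs) and between others at −0.234 to 0.213. The fit had no clutch term, and a clutch block was an alternative, beside DESeq2 1.42.0, both mmp13a identifiers summed (chosen after the values were seen), other filters, fits of 6 libraries and fits without 1 library. The members, the gene lists and the rule for naming genes (all members, and per list at most the 4 passing genes with the largest change, besides defining markers) were chosen with earlier results of these data known. The gene list counts are descriptions. No sequence or genome was used.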

Additional observations from a re-analysis of the deposited data

How the results depend on the processing

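Results were recomputed with DESeq2 size factors, the DESeq2 test, no filter, a minimum count of 30, only the 6 libraries compared, clutch as a block, and without each library in turn. Of 876 recomputed fold changes of the 8 identifiers, 826 kept direction and call, 30 lost a call, 6 gained one and 14 changed sign. The block ended the 2 ncf1 calls (log2 fold changes 0.83 against testosterone and −0.76 between the antagonists) and changed no other call of the members.

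In the order testosterone, calindol and EGCG against DMSO, calindol and EGCG against testosterone, and EGCG against calindol, requiring a log2 fold change of at least 1 left 429, 848, 639, 761, 206 and 2065 genes, and 0, 3, 1, 2, 1 and 4 members. With only the 6 libraries, EGCG against DMSO gave 5876 genes and 4 members, and calindol against testosterone 3303 genes. Without 1 library the counts of genes were 624 to 1649, 4115 to 5911, 1647 to 4252, 4049 to 5456, 584 to 3199 and 7074 to 9016. Those of members were 0 to 2, 4 to 5, 2 to 3, 4 to 5, 0 to 1 and 6 to 7.

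The sign changes were all of values that had not passed. With each library left out in turn, the values of testosterone against DMSO ran from −0.386 to 0.023 for csf3r and from −0.106 to 0.392 for the first mmp13a identifier (also −0.067). For ncf1 with calindol against DMSO they ran from −0.193 to 0.196 (also −0.093), and for the other mmp13a identifier with EGCG against DMSO from −0.141 to 0.475. For EGCG against testosterone they ran from −0.196 to 0.504 for ncf1 (also −0.025 and −0.036), from −0.17 to 0.134 for mpx (also −0.015), from −0.017 to 0.193 for npsn and from −0.028 to 0.467 for the first mmp13a identifier, whose summed value was −0.158. The cause of these changes was not tested. Low counts of csf3r, ncf1 and mmp13a, and 3 libraries a group, limit the precision.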
